A study of Mus musculus with 8 samples.

Results

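Red blood cell genes were followed in brain endothelial cells (ECs) of mutant and wild-type mouse pups. They are the adult β globins *Hbb-bs* and *Hbb-bt*, the adult α globins *Hba-a1* and *Hba-a2*, and *Alas2*, *Hemgn*, *Epb42* and *Bpgm*. They were chosen by name as transcripts of red blood cells and their precursors, with earlier results of these data known. These are 8 of the 49315 genes in the count files, and all 8 were among the 16887 genes that passed the filter on low counts and were tested. The *R26* GT-Map2k1-GFP/+; *Tg-Cdh5CreER* +/− pups (mutant) carried an allele at the *Rosa* locus in which a CAG promoter drives constitutively active *Map2k1* (K57N) and GFP once Cre has removed a stop cassette, and a tamoxifen-activated Cre under the control of the endothelial *Cdh5* gene. Both lines were kept on C57BL/6J, and the other pups are called wild type as labelled. The headings of the study's gene lists differ here, since one names wild-type pups as the control and the other a pup with the *Cdh5* Cre alone, so whether any control carried the Cre is not settled by the sources used here. Controls were littermates, drawn at random to equal the mutants of each litter in number. All pups, wild type included, received tamoxifen under the skin at P1, and brains were taken at P9. Only part of the brain ECs of a mutant pup recombines the allele, so each mutant library mixes recombined and unrecombined cells. The cells were bound to beads by the surface protein CD31, and RNA of 4 mutant and 4 wild-type pups was sequenced as 1 poly(A) library per pup. CD31 is carried by ECs and also by platelets and several kinds of leukocyte.

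Haemoglobin of adult red cells is a tetramer of α and β globin chains, each of which holds a haem group. Erythroid precursors build it while the nucleus is still present, and the reticulocytes that leave the bone marrow have no nucleus but still hold globin mRNA. *Alas2* encodes the erythroid form of the first enzyme of haem synthesis, *Hemgn* a nuclear protein of haematopoietic precursors, *Epb42* the membrane skeleton protein 4.2, and *Bpgm* the enzyme that makes 2,3-bisphosphoglycerate, which lowers the affinity of haemoglobin for oxygen. None of these transcripts is a defining product of ECs. The libraries hold the RNA of whole cell suspensions, in which fewer cells of a type and less RNA per cell cannot be told apart.

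The libraries held between 24833373 and 34196955 counts in mutant and between 28146348 and 32208421 counts in wild-type ECs. The *Map2k1* count takes in the endogenous gene and, in mutant pups, the transgene as well. It stood at 55.3, 59.4, 51.7 and 50.7 CPM (counts per 1000000 counts of the library, scaled by edgeR's TMM method) in wild-type replicates 1 to 4. Mutant replicates 1 to 4 had 631, 428, 428 and 483 CPM, so each library matched its genotype label (log2 fold change 3.18 ± 0.13 SE, adjusted p = 2.84e-07, edgeR quasi-likelihood, Benjamini-Hochberg). Endothelial markers were abundant in every library, with 10 genes summing to between 12432 and 15061 CPM in mutant and between 11764 and 14227 CPM in wild-type ECs. Libraries of the same group were not copies of each other, since the chi-square over its degrees of freedom was 7.25 to 41.6 in the 12 pairs.

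The adult globins come in near-identical pairs, and the pairs limit how far a count can be given to 1 copy. *Hba-a1* and *Hba-a2* differ at 1 of 429 coding bases, and *Hbb-bs* and *Hbb-bt* at 1 of 444. The differences are C381T between *Hba-a1* and *Hba-a2*, and C417T between *Hbb-bs* and *Hbb-bt*, with positions counted from 1 at the first coding base and the first-named gene's base written first. The coding stretch of 60 bases around each difference is shown because it is the only part of the coding sequence that tells the copies of a pair apart, with the differing base in capitals. All 4 stretches lie in exon 3 of 3 and are part of the coding sequence (GENCODE vM21 transcripts, GRCm38). *Hba-a1* is at chr11:32284313-32284372 on the plus strand, *Hba-a2* at chr11:32297130-32297189 on the plus strand, *Hbb-bs* at chr7:103826665-103826724 on the minus strand and *Hbb-bt* at chr7:103812656-103812715 on the minus strand.
Hba-a1: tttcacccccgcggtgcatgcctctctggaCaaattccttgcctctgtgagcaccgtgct
Hba-a2: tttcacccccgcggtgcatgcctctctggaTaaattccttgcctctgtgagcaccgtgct
Hbb-bs: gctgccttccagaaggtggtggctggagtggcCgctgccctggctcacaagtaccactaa
Hbb-bt: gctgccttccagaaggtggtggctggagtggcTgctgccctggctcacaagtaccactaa
Outside the coding sequence the copies differ more. Of all windows of 1 read's length in the reference transcript, 51.6% for *Hba-a1*, 34.3% for *Hba-a2*, 41.3% for *Hbb-bs* and 49.3% for *Hbb-bt* do not occur in the transcript of the other copy. How reads that fit both copies were counted is not given in the sources used here, so the level of a single copy is uncertain. The sum of a pair does not depend on how such reads were divided between the copies. It is too low if they were discarded, and too high if each was counted for both copies. Ratios and levels per kilobase of the globins carry the same limit.

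The promoters of 4 genes are shown beside them, a choice made after the levels were seen. They are RefSeq sequences of GRCm38.p6 that end at the base before the RefSeq transcription start. Capitals mark GATAA (the core read by GATA factors), CACCC (read by factors of the Klf family), CCAAT and TATAA on either strand, and neighbouring matches can run into each other. TATAA was added after the sequences were seen, beside TATAAA. *Hbb-bs* is shown at chr7:103827929-103828143 (minus strand), *Hba-a1* at chr11:32283457-32283671 (plus), *Alas2* at chrX:150547202-150547416 (plus) and *Bpgm* at chr6:34476141-34476355 (plus). The gene models of the count files start upstream of the RefSeq start for these genes, so part of each window belongs to a longer transcript model.
Hbb-bs: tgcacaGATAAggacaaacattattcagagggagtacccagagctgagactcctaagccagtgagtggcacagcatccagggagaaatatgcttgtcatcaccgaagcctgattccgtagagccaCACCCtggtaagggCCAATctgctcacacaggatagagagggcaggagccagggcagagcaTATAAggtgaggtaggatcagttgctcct
Hba-a1: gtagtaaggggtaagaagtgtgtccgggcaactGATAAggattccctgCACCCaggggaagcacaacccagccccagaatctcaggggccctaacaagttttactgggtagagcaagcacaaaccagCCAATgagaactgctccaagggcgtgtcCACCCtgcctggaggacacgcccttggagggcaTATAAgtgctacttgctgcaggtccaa
Alas2: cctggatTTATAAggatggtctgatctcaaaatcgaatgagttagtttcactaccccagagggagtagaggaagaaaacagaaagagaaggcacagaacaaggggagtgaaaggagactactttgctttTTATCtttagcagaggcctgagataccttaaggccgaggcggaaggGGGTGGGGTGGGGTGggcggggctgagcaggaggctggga
Bpgm: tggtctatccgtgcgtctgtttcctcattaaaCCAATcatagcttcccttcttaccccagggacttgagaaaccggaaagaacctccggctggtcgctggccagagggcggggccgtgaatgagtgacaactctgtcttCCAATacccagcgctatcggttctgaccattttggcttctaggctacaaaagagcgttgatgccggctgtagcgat
In the full window before the start, GATAA occurred in 7 of the 8 genes, all but *Bpgm*, and in 22.6% of 32851 promoters. CACCC occurred in 5 of 8 genes against 52.0% of promoters, CCAAT in 5 of 8 against 33.8%, TATAAA in 4 of 8 against 12.4% and TATAA in 7 of 8 against 22.8%. The TATAA of *Hbb-bs* began 29 bases before the start and that of *Hba-a1* 27 bases before it. The promoters of *Hba-a1* and *Hba-a2* were identical over all 212 aligned bases, and those of *Hbb-bs* and *Hbb-bt* over 79.9% of 204 aligned bases. *Hemgn* and *Epb42*, whose promoters are not shown, also held GATAA and TATAA. These matches describe the letters only, and a link between promoter sequence and level was not tested.

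Most of the red blood cell genes were lower in mutant ECs. Of the 8 genes, 5 fell at an adjusted p under 0.05 and a fold change over 2-fold (the 4 globins and *Alas2*), against 8.05% of all tested genes that fell by the same rule, and none rose (5.9% of all tested genes rose). On adjusted p alone 6 of 8 fell, *Bpgm* being the sixth, against 22.9% of all tested genes. The 4 mutant libraries lay below the 4 wild-type libraries without overlap for those same 6 genes, against 21.9% of all tested genes. The median log2 fold change was -1.55 over the 8 genes and -0.02 over all tested genes. Because the genes were chosen with earlier results of these data known, the contrast with all tested genes is a description and not a test.

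**Figure D1:**
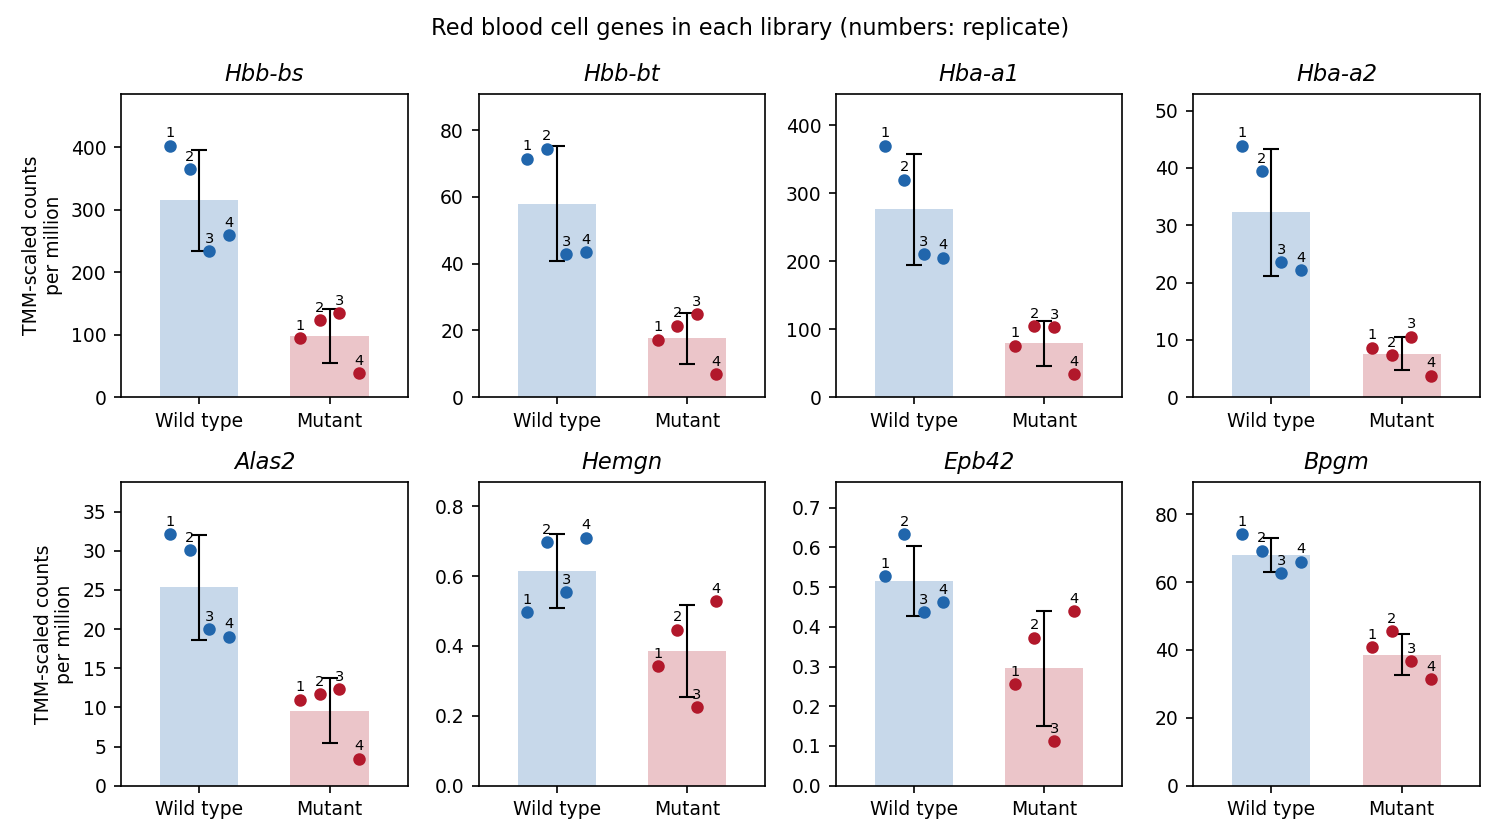
TMM-scaled CPM (y axis, linear, a separate scale for each gene) of the 8 red blood cell genes in wild-type (blue) and mutant (red) brain ECs. Points are libraries with their replicate numbers, bars are group means and whiskers are SD (n = 4 pups per group); the groups do not overlap for the 4 globins, *Alas2* and *Bpgm*, and overlap for *Hemgn* and *Epb42*.

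*Hbb-bs* (ENSMUSG00000052305, chr7:103826534-103828096, minus strand) encodes adult β globin and was the more abundant of the β globin transcripts. It stood at 403, 365, 233 and 260 CPM in wild-type replicates 1 to 4 and at 94.9, 123, 134 and 38.3 CPM in mutant replicates 1 to 4. The highest mutant library remained below the lowest wild-type library, and mutant replicate 4 was lower than the other mutant libraries. The means were 315 ± 81.4 CPM (SD, n = 4) and 97.6 ± 42.9 CPM (SD, n = 4), a fall by 1.69 on the log2 scale (SE 0.33, 3.23-fold, adjusted p = 0.00229, edgeR quasi-likelihood, Benjamini-Hochberg).

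*Hbb-bt* (ENSMUSG00000073940, chr7:103812524-103813996, minus strand) is the neighbouring copy and also encodes an adult β chain. It had 71.5, 74.5, 42.8 and 43.3 CPM in wild-type replicates 1 to 4 and 17.2, 21.4, 24.8 and 6.92 CPM in mutant replicates 1 to 4. As with *Hbb-bs*, wild-type replicates 1 and 2 were the highest libraries and mutant replicate 4 was the lowest. It fell by 1.73 on the log2 scale (SE 0.34, 3.31-fold, adjusted p = 0.00230, edgeR quasi-likelihood, Benjamini-Hochberg), from 58.0 ± 17.3 to 17.6 ± 7.76 CPM (SD, n = 4).

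*Hba-a1* (ENSMUSG00000069919, chr11:32283511-32284465, plus strand) encodes the adult α chain. Wild-type replicates 1 to 4 had 370, 320, 211 and 205 CPM and mutant replicates 1 to 4 had 75.8, 104, 103 and 34.3 CPM. The groups did not overlap, and the gap between them was wider than the range of the mutant libraries. The mean was 277 ± 81.9 CPM in wild-type and 79.3 ± 32.7 CPM in mutant ECs (SD, n = 4), and the gene fell by 1.80 on the log2 scale (SE 0.32, 3.49-fold, adjusted p = 0.00132, edgeR quasi-likelihood, Benjamini-Hochberg).

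*Hba-a2* (ENSMUSG00000069917, chr11:32296489-32297298, plus strand) encodes the same α chain from the second copy. Its levels were 43.9, 39.5, 23.5 and 22.2 CPM in wild-type replicates 1 to 4 and 8.62, 7.34, 10.6 and 3.75 CPM in mutant replicates 1 to 4. Every mutant library was below every wild-type library. The fall of 2.10 on the log2 scale (log2 fold change -2.10, SE 0.32, 4.29-fold, adjusted p = 4.66e-04, edgeR quasi-likelihood, Benjamini-Hochberg) was the largest of the 8 genes, from 32.3 ± 11.0 to 7.57 ± 2.87 CPM (SD, n = 4). Its coding sequence differs from that of *Hba-a1* at 1 base, and the difference between the log2 fold changes of the copies was not tested.

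Summed over the 4 genes, the adult globins made up 888, 799, 510 and 530 CPM in wild-type replicates 1 to 4 and 197, 256, 273 and 83.3 CPM in mutant replicates 1 to 4. The groups did not overlap, and the mean of wild type was 3.37 times the mean of mutant (682 ± 190 against 202 ± 85.7 CPM, SD, n = 4). Globins were a small part of every library, 0.0692% ± 0.0183 of all counts in wild-type and 0.0198% ± 0.00854 in mutant ECs (SD, n = 4). Each library's description begins with a number, shared by replicates 1 and 2 of both groups, by replicates 3 and by replicates 4. These sets hold equal numbers of mutant and wild-type pups, as the matching within litters would give, but no label says that the number marks a litter. With this number as a block 5 of the 8 genes were called, as without it (edgeR quasi-likelihood, Benjamini-Hochberg). Within libraries of the same number, summed globins were 3.73 times higher in wild type for replicates 1 and 2, 1.87 times for replicate 3 and 6.37 times for replicate 4. The direction was the same in all 3 sets, and the size ranged widely.

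The balance between the chains moved less than their amount. The ratio of α to β globin counts per kilobase was 0.834, 0.781, 0.807 and 0.716 in wild-type replicates 1 to 4 and 0.718, 0.731, 0.679 and 0.802 in mutant replicates 1 to 4. The groups overlapped, with means of 0.784 ± 0.0506 and 0.733 ± 0.0514 (SD, n = 4). *Hbb-bt* gave 15.5% ± 1.12 of the β globin counts in wild-type and 15.3% ± 0.307 in mutant ECs, and *Hba-a2* gave 10.3% ± 0.553 and 8.99% ± 1.64 of the α globin counts (SD, n = 4), with overlap between the groups for both shares.

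**Figure D2:**
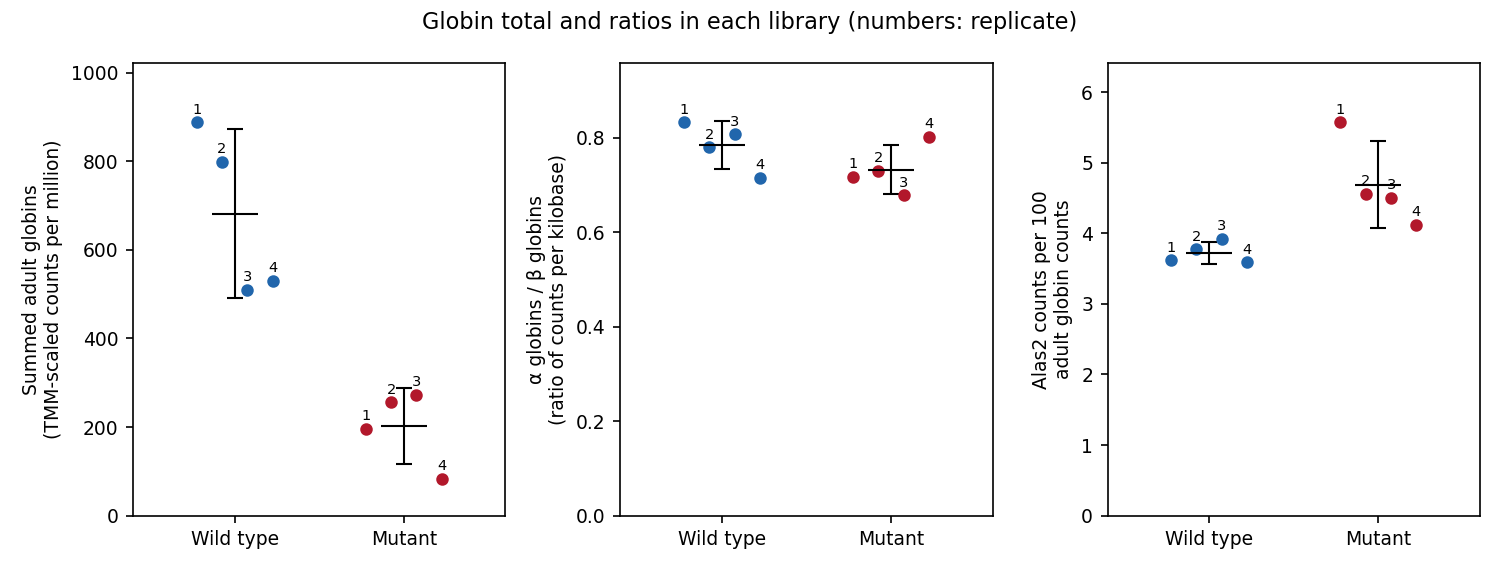
Left, summed CPM of the 4 adult globins; centre, ratio of α to β globin counts per kilobase; right, *Alas2* counts per 100 adult globin counts, in wild-type (blue) and mutant (red) libraries. Points are libraries with their replicate numbers, lines are means and whiskers SD (n = 4), and all y axes start at 0; the globin sum separates the groups, the α to β ratio overlaps between them, and the *Alas2* share lies higher in each mutant library.

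*Alas2* (ENSMUSG00000025270, chrX:150547375-150570638, plus strand) followed the globins. It had 32.1, 30.1, 20.0 and 19.0 CPM in wild-type replicates 1 to 4 and 11.0, 11.7, 12.3 and 3.43 CPM in mutant replicates 1 to 4. Mutant replicates 1 to 3 were close to each other, replicate 4 was far below them, and no mutant library reached a wild-type level. The gene fell by 1.41 on the log2 scale (SE 0.34, 2.66-fold, adjusted p = 0.00700, edgeR quasi-likelihood, Benjamini-Hochberg), from 25.3 ± 6.75 to 9.58 ± 4.14 CPM (SD, n = 4). Within libraries of the same label number it was 2.75, 1.63 and 5.55 times higher in wild type for replicates 1 and 2, replicate 3 and replicate 4, the order of the globins. Per 100 adult globin counts there were 3.62, 3.77, 3.92 and 3.59 *Alas2* counts in wild-type replicates 1 to 4 and 5.58, 4.56, 4.50 and 4.12 in mutant replicates 1 to 4. Each mutant library thus held somewhat more *Alas2* for its globin than any wild-type library. The exons of *Alas2* share 311 bases with those of *Apex2*, a DNA repair endonuclease gene on the opposite strand, and the library kit named in the labels does not mark strand, so reads there cannot be assigned. *Apex2* had 360 to 564 counts per library and its log2 fold change was 0.55 ± 0.10 SE (adjusted p = 0.00133, edgeR quasi-likelihood, Benjamini-Hochberg), opposite in sign to that of *Alas2*. Its part in the *Alas2* counts was not tested.

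*Bpgm* (ENSMUSG00000038871, chr6:34476207-34505613, plus strand) is also expressed outside red cells. It had 74.1, 69.3, 62.7 and 66.0 CPM in wild-type replicates 1 to 4 and 40.8, 45.6, 36.7 and 31.3 CPM in mutant replicates 1 to 4. Its libraries were the most alike within a group of all 8 genes, and the groups did not overlap. It fell by 0.82 on the log2 scale (SE 0.11, 1.76-fold, adjusted p = 2.38e-04, edgeR quasi-likelihood, Benjamini-Hochberg), from 68.0 ± 4.89 to 38.6 ± 6.05 CPM (SD, n = 4), which did not reach the 2-fold limit. Within libraries of the same label number the fold was 1.66, 1.71 and 2.11, a far narrower range than for the globins. There were 8.35, 8.68, 12.3 and 12.4 *Bpgm* counts per 100 adult globin counts in wild-type replicates 1 to 4 and 20.8, 17.8, 13.5 and 37.6 in mutant replicates 1 to 4, so relative to globin it was higher in each mutant library.

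*Hemgn* (ENSMUSG00000028332, chr4:46393989-46413506, minus strand) was rare. It had 16, 22, 19 and 20 counts in wild-type replicates 1 to 4 and 8, 12, 6 and 18 counts in mutant replicates 1 to 4. Mutant replicate 4, the library with the least globin, had the most *Hemgn* of the mutant libraries. Its log2 fold change was -0.65 (SE 0.32, adjusted p = 0.129, edgeR quasi-likelihood, Benjamini-Hochberg), and the groups overlapped in CPM. The fold between wild type and mutant was 1.51, 2.47 and 1.35 within the 3 label numbers.

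*Epb42* (ENSMUSG00000023216, chr2:121017891-121037072, minus strand) was as rare. It had 17, 20, 15 and 13 counts in wild-type replicates 1 to 4 and 6, 10, 3 and 15 counts in mutant replicates 1 to 4. The order of the mutant libraries was that of *Hemgn*, with replicate 3 lowest and replicate 4 highest. Its log2 fold change was -0.77 (SE 0.39, adjusted p = 0.133, edgeR quasi-likelihood, Benjamini-Hochberg). Within the 3 label numbers wild type was 1.85, 3.90 and 1.05 times mutant. The 95% interval of the log2 fold change was -1.36 to 0.07 for *Hemgn* and -1.63 to 0.09 for *Epb42*, so a moderate fall could not be told from no change. The interval of *Hbb-bs*, -2.43 to -0.95, overlapped both, as did those of *Hbb-bt* and *Hba-a1*. That of *Hba-a2*, -2.80 to -1.40, overlapped the interval of *Epb42* alone. Whether the globins fell by more than these rare genes was not tested.

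Compared per length, the mean levels spanned a wide range, and some neighbours lay close to each other. In wild-type ECs the means in CPM per kilobase (RPKM, with the gene lengths of the count files) were 410 for *Hbb-bs*, 341 for *Hba-a1*, 82.5 for *Hbb-bt*, 48.4 for *Hba-a2*, 19.0 for *Bpgm*, 10.5 for *Alas2*, 0.245 for *Hemgn* and 0.0951 for *Epb42*. In mutant ECs the order was the same, with 127, 97.7, 25.0, 11.3, 10.8, 3.99, 0.153 and 0.0545 RPKM. Of neighbours in this order, *Hbb-bs* and *Hba-a1* overlapped in range within each group, as did *Hbb-bt* and *Hba-a2*, and *Hba-a2* and *Bpgm* overlapped in mutant ECs. Mutant means were 31.0% of the wild-type means for *Hbb-bs*, 30.3% for *Hbb-bt*, 28.7% for *Hba-a1*, 23.5% for *Hba-a2*, 37.9% for *Alas2*, 56.8% for *Bpgm*, 62.7% for *Hemgn* and 57.3% for *Epb42*.

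**Figure D3:**
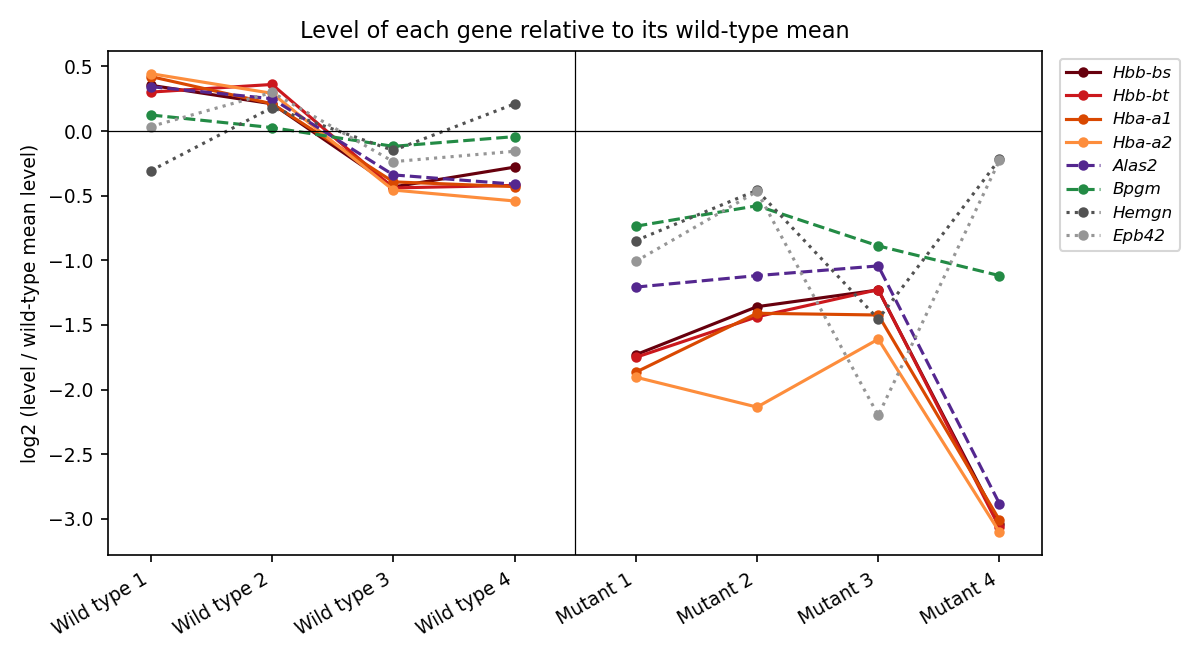
Level of each red blood cell gene in each library relative to the gene's mean over the 4 wild-type libraries (y axis, log2 of the ratio of TMM-scaled CPM; 0 is the wild-type mean). Lines join the values of 1 gene and mark no order of the replicates; the globins (solid) and *Alas2* run together through all 8 libraries with the lowest point in mutant replicate 4, *Bpgm* varies less, and *Hemgn* and *Epb42* (dotted) rest on 22 counts or fewer per library.

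Across the 8 libraries, the log2 level of each globin correlated with the summed level of the other globins with Pearson's r between 0.978 and 0.997, *Alas2* with the globins with r = 0.988 and *Bpgm* with r = 0.951. After the mean of each group was removed, r was 0.983 for *Alas2*, 0.809 for *Bpgm*, -0.61 for *Hemgn* and -0.40 for *Epb42*. The values are descriptive over 8 libraries, and the points share the library, its scaling and, for the globin copies, part of their sequence. Thus the globins and *Alas2* varied together from pup to pup within a genotype too. Both were lowest in mutant replicate 4 and, among wild-type libraries, highest in replicates 1 and 2, which share a label number. *Hemgn* and *Epb42* had 22 counts or fewer per library, so their r cannot show whether they followed the globins.

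The 10 other tested genes whose log2 level followed the summed globins most closely over the 8 libraries had r between 0.993 and 0.997, and none of them was on a list of red cell genes used here. They were *Zfp532*, *Gm29585*, *Atp6v0a1* (a subunit of the vacuolar proton pump), *Slc52a2* (a riboflavin transporter), *Cep41*, *Fyco1* (an adaptor of autophagosome transport), *Cdpf1*, *Fbxl6*, *Arhgap27* and *Phkb* (a subunit of phosphorylase kinase). They were picked from 16887 genes for this likeness, so their difference between the groups is given without a test. Their log2 fold changes lay between -1.02 for *Gm29585* and -0.39 for *Atp6v0a1*, a narrower change than that of the globins they followed.

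Genes of neighbouring steps of red cell biology were counted by list, beside the shares of all tested genes: 8.05% fell and 5.9% rose past the 2-fold limit, and 22.9% fell and 21.5% rose on adjusted p alone. Of the other globins, 6 of 7 were matched in the count files, and the embryonic β globin *Hbb-y* was the only one with enough counts to be tested. It had 32, 32, 43 and 38 counts in wild-type replicates 1 to 4 and 9, 75, 70 and 62 counts in mutant replicates 1 to 4. Its log2 fold change of 0.73 did not pass (adjusted p = 0.216, edgeR quasi-likelihood, Benjamini-Hochberg) and had the opposite sign to the adult globins. Without mutant replicate 1, which had the fewest *Hbb-y* counts, it was 1.08 and passed (adjusted p = 0.00664, same test). *Hbq1b*, a θ globin, had 8 counts or fewer in every library, and *Hbb-bh2* had 0 counts throughout.

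Of the other 11 genes of haem synthesis, none passed the 2-fold limit in either direction, 6 fell on adjusted p alone and none rose (median -0.35 on the log2 scale). *Alas1*, the form of the first enzyme used outside erythroid cells, was the most abundant of them and stood at 205 ± 11.9 CPM in wild-type and 135 ± 15.5 CPM in mutant ECs (SD, n = 4, log2 fold change -0.61, adjusted p = 4.39e-04, edgeR quasi-likelihood, Benjamini-Hochberg). *Alad*, the next enzyme of the pathway, had a log2 fold change of -0.36 that did not pass (adjusted p = 0.0627, edgeR quasi-likelihood, Benjamini-Hochberg).

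Among 13 genes of haem and iron handling, 2 fell and 1 rose past the 2-fold limit, 5 fell and 2 rose on adjusted p alone, and the median log2 fold change was -0.10. In lists this short the counts that rose were near or below the shares of all tested genes (5.9% and 21.5%), and those that fell stood against 8.05% and 22.9%. *Tfrc*, the transferrin receptor that takes up iron in erythroid precursors and in brain ECs, fell by 2.75 on the log2 scale (SE 0.40, adjusted p = 3.97e-04, edgeR quasi-likelihood, Benjamini-Hochberg), from 2414 ± 216 to 359 ± 233 CPM (SD, n = 4). The iron exporter *Slc40a1* fell by 1.59, from 622 ± 51.5 to 206 ± 44.8 CPM. *Hmox1*, which breaks down haem, rose by a log2 fold change of 1.22 (adjusted p = 0.0455, edgeR quasi-likelihood, Benjamini-Hochberg), from 446 ± 264 to 1037 ± 607 CPM, with overlap between the groups. Its call was lost without mutant replicate 1, 3 or 4 or wild-type replicate 1, 2 or 3, and without mutant replicate 4 its log2 fold change was 0.75 (adjusted p = 0.140, same test). With the label number as a block it was 1.24 (adjusted p = 1.13e-04, same test). Of the ferritin chains, the most abundant genes of this list, *Fth1* had a log2 fold change of -0.46 and *Ftl1* of 0.34, both past the adjusted p threshold and within 2-fold.

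Of 14 tested genes of the red cell membrane, 3 fell and 2 rose past the 2-fold limit, with a median log2 fold change of 0.04. *Slc4a1* (the band 3 anion exchanger) and *Sptb* (the erythroid β spectrin) were among those that fell, by 1.28 and 1.20 on the log2 scale. *Sptb* stood just short of 2-fold without wild-type replicate 3 (-0.99). *Slc4a1* was rare, with 167 to 281 counts in wild-type and 62 to 103 counts in mutant libraries. *Add2* (β adducin) rose by a log2 fold change of 3.49, from 2.37 ± 1.10 to 26.9 ± 7.11 CPM, and *Gypc* (glycophorin C) by 2.36, from 3.42 ± 0.663 to 17.6 ± 3.27 CPM (SD, n = 4). Both are expressed outside red cells too, and for the genes that fell the cells of origin were not tested either. *Epb41* and *Aqp1*, the members of highest level, had log2 fold changes of 0.13 and -0.02 and did not pass.

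Of 6 tested genes of a list of erythroid transcription factors and the erythropoietin receptor, 2 fell past the 2-fold limit, 5 fell on adjusted p alone and none rose (median -0.60 on the log2 scale). *Lmo2* and *Tal1*, which ECs also use, were the most abundant. *Lmo2* fell by 1.76 on the log2 scale, from 360 ± 32.3 to 106 ± 15.8 CPM, and *Tal1*, past the adjusted p threshold alone, by 0.51, from 104 ± 3.67 to 72.9 ± 7.98 CPM (SD, n = 4). *Bcl11a*, a repressor of fetal and embryonic globin genes, fell by 1.29, from 1.98 ± 0.569 to 0.806 ± 0.111 CPM, and its cells of origin were not tested. The defining erythroid factors *Gata1*, *Klf1* and *Gfi1b* did not pass the filter on low counts, and had at most 14 counts in any library.

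Of 9 tested genes of reticulocyte maturation, 1 fell past the 2-fold limit, and on adjusted p alone 3 fell and 2 rose (median log2 fold change -0.34), close to the shares of all tested genes (8.05% lower past the limit, 22.9% lower and 21.5% higher on adjusted p). The list had no call with the label number as a block. It had none either without mutant replicate 1 or 4 or wild-type replicate 1 or 2. Without mutant replicate 3, *Tent5c*, a poly(A) polymerase, passed the 2-fold limit as well (-1.06). *Car2* (carbonic anhydrase 2) and *Bnip3l* (a mitophagy receptor), the members of highest level, had log2 fold changes of 0.58 and -0.34, both past the adjusted p threshold and within 2-fold.

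**Figure D4:**
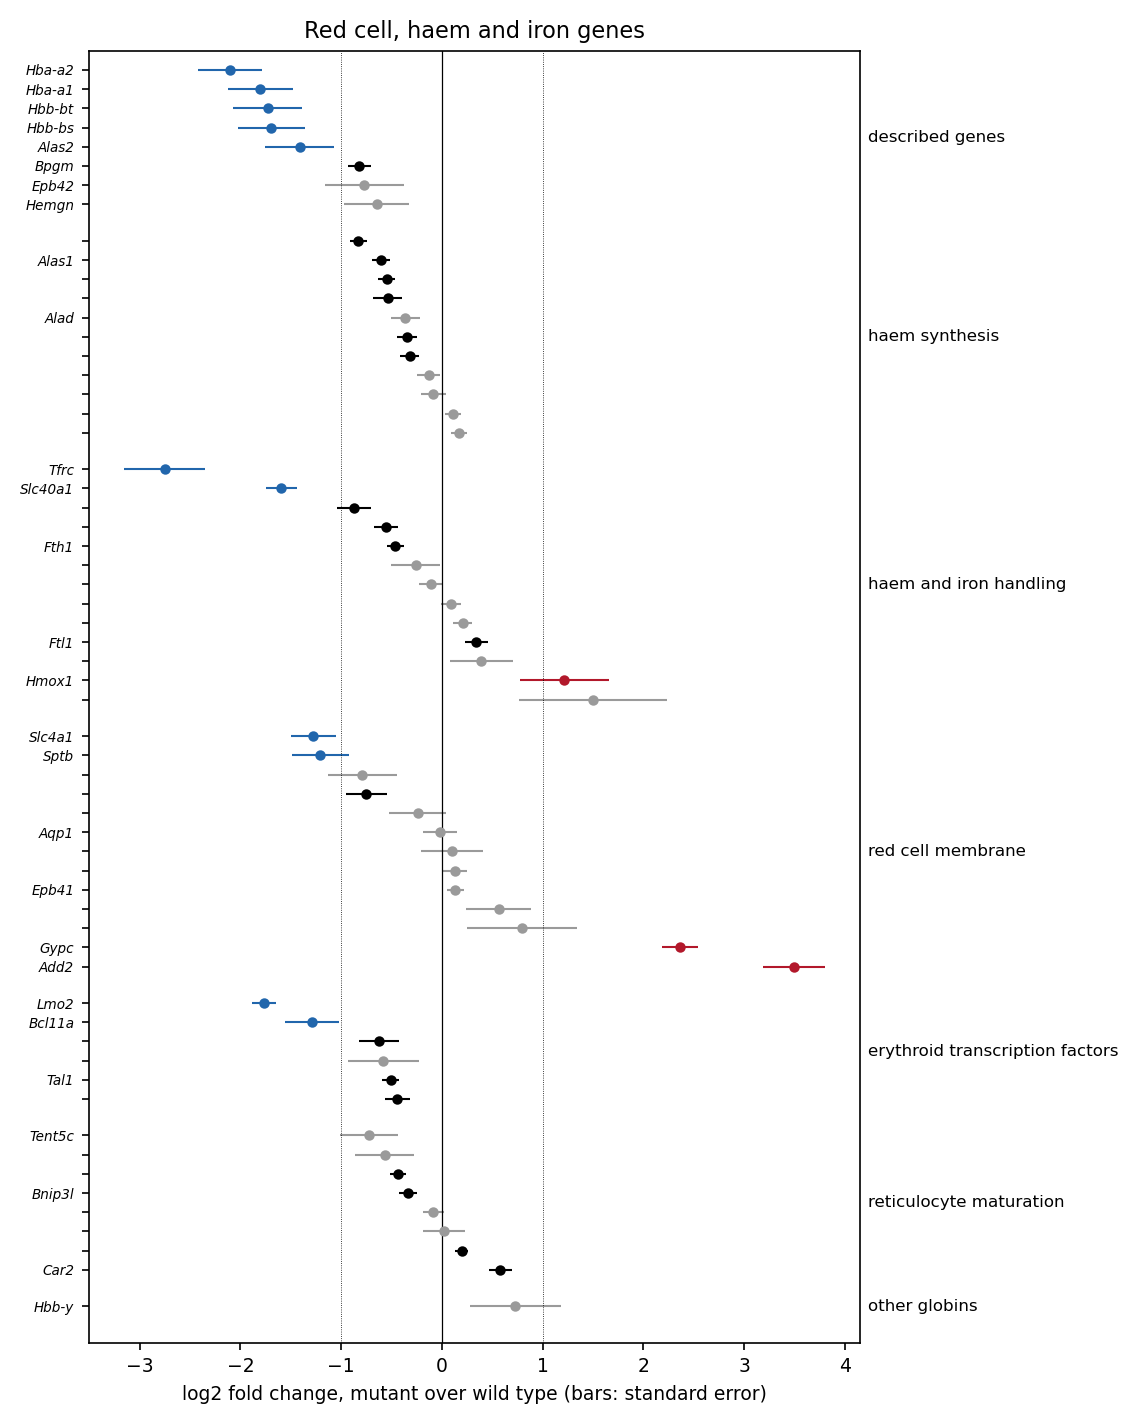
Log2 fold change of mutant over wild type (x axis, points, with bars for the standard error) for the red blood cell genes and for members of 6 lists of related genes (rows, grouped, with names for those described in the text). Blue and red mark genes that fell or rose at an adjusted p under 0.05 and over 2-fold, black those past the adjusted p alone and grey those that did not pass, and dotted lines mark 2-fold; the adult globins and *Alas2* all lie left of the 2-fold line, while the other lists hold genes on both sides of 0, apart from *Hbb-y* alone among other globins and the transcription factors, all below 0.

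Markers of other cells in the suspension were read beside these values. Past the 2-fold limit, 8.05% of all tested genes fell and 5.9% rose. A lone call or none in a list this short tells little beside these shares. Of 6 tested platelet genes none passed the 2-fold limit, and their summed level was 16.6 to 25.7 CPM in mutant and 17.0 to 21.8 CPM in wild-type ECs, with overlap between the groups. The 9 neutrophil genes summed to 34.8 to 52.7 and 21.3 to 44.4 CPM, with *Lcn2* rising (log2 fold change 2.16) and *Mpo* falling (-1.07, but -0.89 without wild-type replicate 3 and -0.996 without wild-type replicate 4). The median log2 fold change of the neutrophil genes was -0.51, so their sum does not describe most of that list. The 8 lymphocyte genes summed to 4.61 to 15.8 and 10.7 to 21.9 CPM, and 2 of 4 tested fell, among them the B cell gene *Ms4a1* (-2.44). None of the 10 microglia and macrophage genes passed, with sums of 168 to 601 and 189 to 676 CPM.

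Markers of brain cells moved in both directions, and their calls stand beside the same shares of all tested genes (8.05% lower and 5.9% higher). All 6 oligodendrocyte genes fell, among them *Sox10* (log2 fold change -3.08), *Olig2* (-2.57), *Mbp* (-2.45), *Mag* (-2.31) and *Mog* (-1.46), and their sum was 27.0 to 58.5 CPM in mutant and 88.0 to 265 CPM in wild-type ECs. Of 6 neuron genes *Snap25* (-1.63), *Tubb3* (-1.48) and *Stmn2* (-1.20) fell, with sums of 20.6 to 28.2 and 29.3 to 52.9 CPM. *Snap25* lost its call without mutant replicate 1, 2 or 3 or wild-type replicate 1 or 3 (log2 fold changes of -1.49 to -1.18), and *Stmn2* was at -0.92 without mutant replicate 1. None of the 6 astrocyte genes passed the 2-fold limit, and their sum was 624 to 748 and 370 to 440 CPM. On adjusted p alone 1 of the astrocyte genes rose and none fell, and their median log2 fold change was -0.49. The higher sum in mutant ECs thus does not describe most of that list. Of 8 pericyte and smooth muscle genes *Abcc9* rose (1.78), with sums of 659 to 1109 and 638 to 1182 CPM. *Abcc9* does not stand for its list, in which 2 genes rose and none fell on adjusted p alone (median log2 fold change -0.14). Of 5 fibroblast genes *Pdgfra* fell (-1.03, between -0.999 and -0.893 without mutant replicate 1 or 4 or wild-type replicate 1 or 3). It does not stand for its list, in which 2 genes rose and 1 fell on adjusted p alone (median log2 fold change 0.39). The fibroblast sums were 912 to 1157 and 700 to 1005 CPM. The endothelial genes *Cdh5*, whose regulatory sequence drives the Cre, and *Pecam1*, which encodes CD31, had log2 fold changes of 1.11 and 0.53. They do not stand for their list, since of 10 endothelial genes 2 rose and 3 fell on adjusted p alone (median log2 fold change -0.03). The part of these cell types in the level of the red blood cell genes was not tested.

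**Figure D5:**
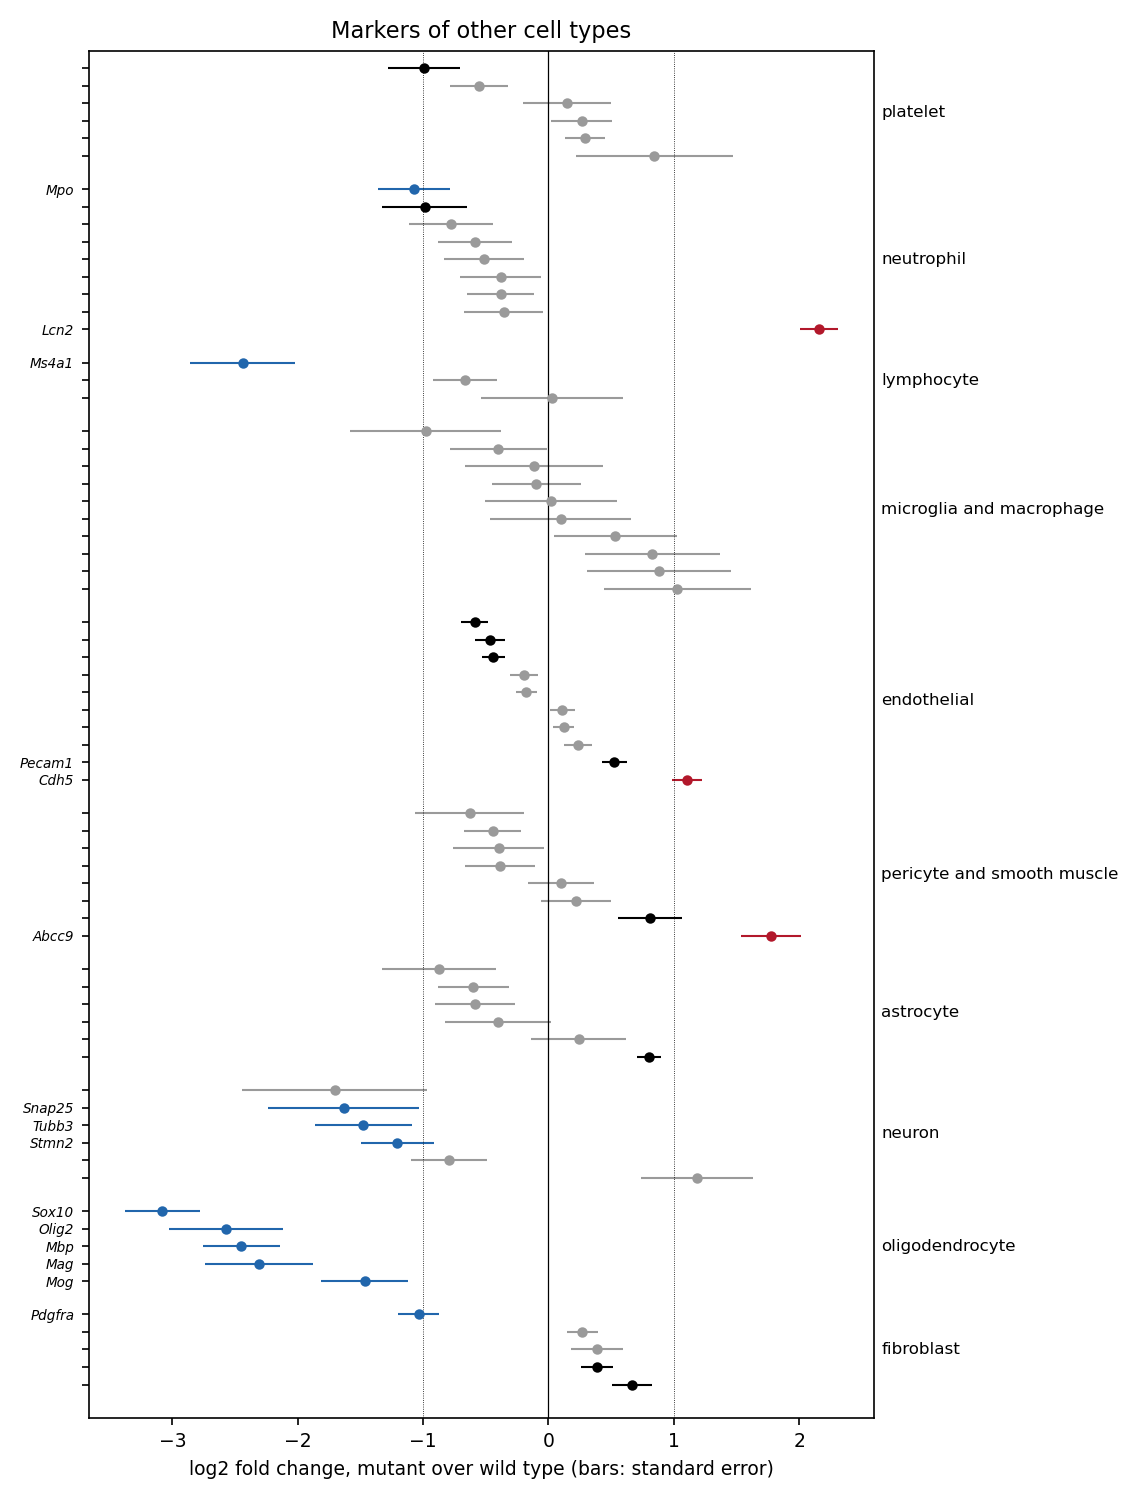
Log2 fold change of mutant over wild type (x axis, points, with bars for the standard error) for markers of 10 other cell types (rows, grouped, with names for those described in the text). Colours are as in the plot of related genes: blue and red mark falls and rises over 2-fold at an adjusted p under 0.05, black the adjusted p alone, grey neither; all oligodendrocyte genes shown are blue and no platelet or microglia gene is blue or red.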

How the data were processed

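Reads of 8 poly(A) libraries were trimmed by the authors with Trimmomatic and mapped to GRCm38 with STAR, and the authors deposited whole-number counts per gene without normalization. The counting program, annotation release, use of strand and treatment of reads with several matches are not given in the sources used here. A second deposited set, counts divided by DESeq2 size factors, was not used. Symbols from the reference table matched 48970 of 49315 gene identifiers. The genes described and all lists were chosen with earlier results of these data known.

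Counts were analysed with edgeR 4.0.16 in R 4.3.3: TMM scaling, filterByExpr (minimum count 10), glmQLFit and glmQLFTest on 4 mutant and 4 wild-type libraries with no covariate, and Benjamini-Hochberg adjustment over 16887 genes. Calls needed an adjusted p below 0.05 and a change of more than 2-fold (1 on the log2 scale). The main edgeR fit alone was run on simulated data, with the same spread for all genes and large planted changes. Such data check the code and do not show how the fit does at the spread of these libraries. P-values set the difference between the groups against the spread between pups within a group, and 95% intervals came from the same test. With no covariate, that spread takes in any difference between label numbers. Correlations used log2(CPM + 0.5). Named are the 8 genes, called genes and the 2 of highest level of each related list, called markers of other cells with *Pecam1* and *Cdh5*, the 10 genes most like the summed globins and *Map2k1*. *Apex2*, *Hbb-bh2*, *Tent5c*, *Gata1*, *Klf1* and *Gfi1b* were added after their values were seen. Alternatives were DESeq2 1.42.0, other scalings and filters, blocks for the replicate number or label number, each library left out, summed copies and, added later, adjusted p alone and the TATAA motif. Some genes of the lists are counted but neither named nor plotted here. Sequences were read from RefSeq promoters and GENCODE vM21.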

Additional observations from a re-analysis of the deposited data

Results flagged for a closer look

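*Alas2* in mutant replicate 4 stood apart from its group. It had 3.43 CPM, while the other mutant libraries had 11.0 to 12.3 CPM, and its gap to the nearest of them was 0.851 of the whole range of the group, above Dixon's 95% critical value for 4 samples. The same library was the lowest for all 4 adult globins, by gaps that did not pass the critical value, and it was the highest mutant library for *Hemgn* and *Epb42*. Chance flags about 1 in 20 groups, and 38 groups were checked.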

How the results depend on the processing

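The call of 5 of the 8 genes held under DESeq2, every other scaling and filter, both blocks and each library left out, and no direction reversed. With the copies of each globin pair summed, 3 features were called: the α pair, the β pair and *Alas2*. Over these settings the log2 fold change was between -1.87 and -1.40 for *Hbb-bs*, -1.93 and -1.43 for *Hbb-bt*, -1.96 and -1.53 for *Hba-a1*, -2.30 and -1.84 for *Hba-a2*, -1.55 and -1.10 for *Alas2*, and -0.91 and -0.71 for *Bpgm*, all with an adjusted p of at most 0.0254, while *Hemgn* (at least 0.0884) and *Epb42* (at least 0.0847) passed in none (DESeq2 or edgeR's quasi-likelihood test).

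Over all genes, 2356 were called, 1201 (611 lower, 590 higher) with a mean of at least 100 counts required, 7504 (3873 lower, 3631 higher) on adjusted p alone, and 2168 to 2662 with 1 library left out. Fewer genes tested and the dropped fold limit make those counts by construction. The erythroid transcription factors had 2 calls and 1 with the mean of at least 100 counts, which *Bcl11a* does not reach. The other globins had 0 calls and 0 to 1 with a library left out, 1 without mutant replicate 1. Reticulocyte maturation had 1 call, 0 under DESeq2, size factors by RLE and the block for the label number, and 0 to 2 with a library left out: 0 without mutant replicate 1 or 4 or wild-type replicate 1 or 2, and 2 without mutant replicate 3. *Hmox1* lost its call in 9 settings and *Snap25* in 6. The cause was not tested.

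With the replicate number as a block, 2431 genes were called (1032 higher, 1399 lower), and with the label number 2456 (1050 higher, 1406 lower). In both, 5 of the 8 genes were called, reticulocyte maturation had 0 calls and haem and iron handling 4 in place of 3. Deviations of libraries with the same replicate number correlated at 0.201, 0.210, 0.290 and 0.0241. Of the 6 pairs of a mutant and a wild-type library with the same label number 5 were over 0.1, against 1 of the 10 other pairs (0.384). Wild-type pups were littermates of mutants, but the labels do not tie a number to a litter, so the pairing was not settled. *Hemgn* and *Epb42* had 22 counts or fewer per library.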
